A study of Mus musculus with 2 samples.

Results

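Integrins are the main receptors by which fibroblasts hold on to their matrix, and 10 of their subunit genes were followed here in cultured mouse embryonic fibroblasts labelled Sptbn1 knockout or wild type. The members are subunits usual for fibroblasts, taken as a fixed list of names that was chosen with earlier results of these data known. Each was found by its name in the deposited table, so that 10 of the 25430 distinct names were taken. The table spells them ITGA1, ITGA2, ITGA3, ITGA5, ITGA6, ITGA11, ITGAV, ITGB1, ITGB3 and ITGB5, and they are written as mouse symbols below. The knockout library came from fibroblasts labelled Sptbn1 knockout and the wild-type library from fibroblasts labelled wild type, both grown as primary cells from E13.5 embryos after mating of heterozygous parents. The series' title gives the knockout as homozygous. Sptbn1 encodes beta-2 spectrin, a scaffold of the membrane skeleton that the literature also describes as an adaptor of the SMAD proteins that carry TGF-β signals. The labels do not say which exons were deleted, or how many embryos gave the cells of a culture. With 1 library per genotype, no difference below has a replicate check, and each statement compares these 2 libraries only.

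An integrin is a pair of an alpha and a beta chain that spans the plasma membrane. The alpha chain largely decides which ligand is held, and the short cytoplasmic tail of the beta chain is bound inside the cell by talin and kindlin, which link it to actin. By the usual grouping, α1, α2 and α11 paired with β1 bind collagens, α3 and α6 bind laminins, and α5β1 and the αv integrins bind the RGD tripeptide of fibronectin, vitronectin and the latent TGF-β complex. The β1 chain is shared by all of these groups, and β3 and β5 pair with αv.

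Levels are FPKM (fragments per kilobase of transcript, normalised to library size) as the authors deposited them, so levels of different genes can be compared per length. Each difference between the libraries is log2((knockout FPKM + 1)/(wild-type FPKM + 1)), negative where the knockout library was lower. Adding 1 shrinks the differences of genes at low FPKM. A gene is called measured when its mean over both libraries reached 1 FPKM, which 11070 genes did. The table gives no fragment totals, so depth is unknown, but 1 fragment counted for 1.61-fold the FPKM in the shallower knockout library that it did in the wild-type one. The FPKM summed to 279927 in knockout fibroblasts and 386567 in wild-type fibroblasts. The header of the wild-type column reads WT but also bears -/-, and the column was assigned by its WT, the title of that sample. Sptbn1, listed under its older name Spnb2, was at 36.6 FPKM in knockout fibroblasts and 69.6 FPKM in wild-type fibroblasts, a log2 ratio of -0.91. FPKM cover the whole gene, so the remaining signal does not show whether an intact transcript was made. In bulk RNA, fewer cells of a type and less RNA per cell cannot be told apart.

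The cultures carried high levels of fibroblast genes. All 11 fibroblast markers were measured, with levels of 2.99 to 939 FPKM in knockout fibroblasts and 2.77 to 957 FPKM in wild-type fibroblasts. Their median log2 ratio was -0.08, against -0.05 for all measured genes. Of 7 epithelial markers 1 was measured, Krt18, at 1.33 FPKM in knockout fibroblasts and 1.32 FPKM in wild-type fibroblasts. Of 7 endothelial markers 1 was measured, Flt1, at 9.01 FPKM in knockout fibroblasts and 10.1 FPKM in wild-type fibroblasts. The other 6 of each list were below 1 FPKM. Epcam was listed at 0 FPKM in knockout fibroblasts and 0.144 FPKM in wild-type fibroblasts, and Cdh5 was at 0.158 FPKM in knockout fibroblasts and 0.152 FPKM in wild-type fibroblasts.

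Integrin RNA in these fibroblasts was dominated by the β1, α5, α11 and αv genes, and the 10 members stood in the same order of level in both libraries. Itgb1 led with 143 FPKM in knockout fibroblasts and 152 FPKM in wild-type fibroblasts, at least 3.55 times the level of the next member. Itga5, the fibronectin receptor alpha chain, was at 40.3 FPKM in knockout fibroblasts and 39.9 FPKM in wild-type fibroblasts. Itga11 and Itgav came next and lay close to Itga5, each within 1.38-fold of the member above it in both libraries. The order then ran through Itgb5, Itgb3, Itga1, Itga6 and Itga2 to Itga3. Only Itga3, at 0.563 FPKM in knockout fibroblasts and 0.480 FPKM in wild-type fibroblasts, fell short of the measured limit, and 9 of 10 members passed it. Where neighbours in this order differ cannot be set against a spread, since each level comes from 1 library.

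**Figure D1:**
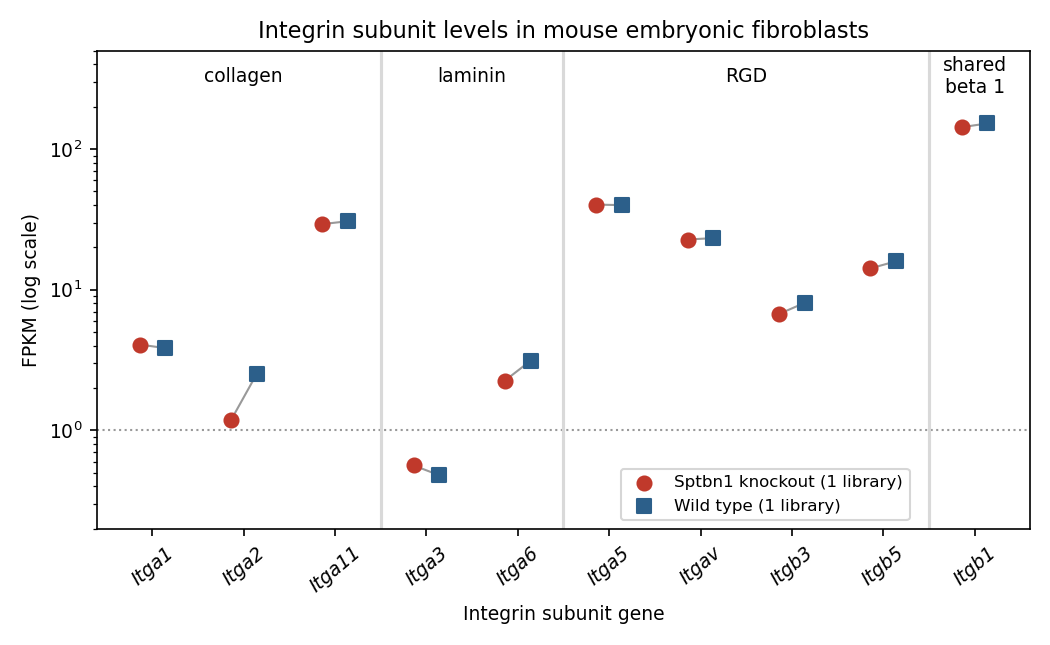
FPKM (log axis) of the 10 integrin subunit genes in the Sptbn1 knockout library (circles) and the wild-type library (squares), grouped by ligand. Grey lines join the values of 1 gene, and the dotted line marks 1 FPKM. Itga2 shows the widest gap, at 1.18 FPKM in knockout fibroblasts and 2.50 FPKM in wild-type fibroblasts, and Itga3 lies below 1 FPKM in both.

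Most members differed little between the libraries, and Itga2 differed most. Of the 9 measured members, 5 had log2 ratios within 0.1 of 0, as did 44.5% of all measured genes. One member, Itga2, was lower by at least 1.5-fold and none was higher by that much, where 1.23% of all measured genes were lower and 1.04% higher. None reached 2-fold on this scale, which 0.379% of measured genes did on the lower side and 0.361% on the higher side. Log2 ratios were below 0 in 7 of the 9, a share to be read against the 63.1% of all measured genes below 0, and in 2 of the 9 when the libraries were scaled to a common FPKM sum. The median of the 9 was -0.09, against -0.05 for all measured genes. Of the scalings tried, that one moved the zero point most: it put the median of all measured genes at 0.34 and that of the members at 0.38. With the median gene set to 0, 6 of the 9 members were below 0. Leaving small RNA genes and rows that differed more than 100-fold out of the sums took the scaling factor down to -0.02 on the log2 scale, with 8 of the 9 members below 0. Directions are therefore those of the deposited FPKM, beside a median gene at -0.05.

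**Figure D2:**
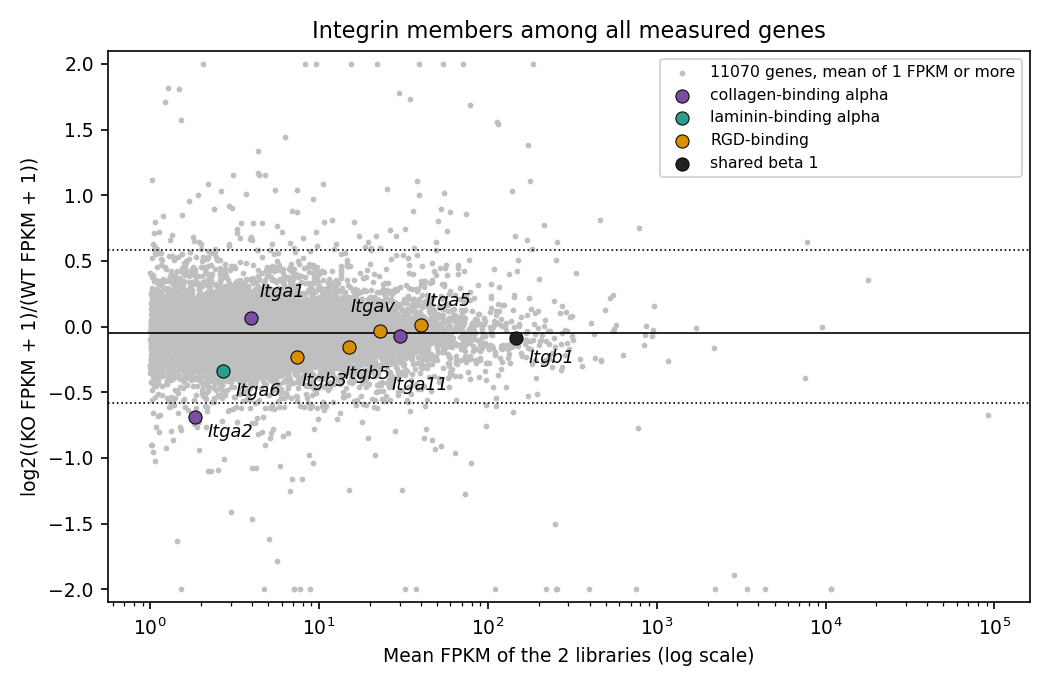
Log2 ratio of knockout over wild type against mean FPKM (log axis) for 11070 measured genes (grey) and the 9 measured integrin members (coloured by ligand group). The solid line is the median gene at -0.05, dotted lines mark 1.5-fold, and values beyond 2 are drawn at the edge. Itga2, at -0.68, lies outside the dotted lines and the other 8 members lie between them.

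Among the collagen receptors, the minor chain α2 was lower in knockout fibroblasts while the major chain α11 and the chain α1 were near equal. Itga2, whose product pairs with β1 as a receptor of fibrillar collagen also known from platelets and epithelia, was at 1.18 FPKM in knockout fibroblasts and 2.50 FPKM in wild-type fibroblasts. The knockout value was 47.1% of the wild-type value, and the log2 ratio was -0.68, or -1.08 with no pseudocount and -0.39 on a common FPKM sum. Of the 11070 measured genes, 88 had a lower ratio. Itga11, the α11 chain of mesenchymal cells and the main fibrillar collagen receptor gene here, was at 29.3 FPKM in knockout fibroblasts and 30.7 FPKM in wild-type fibroblasts, with a log2 ratio of -0.07. Itga1, whose product favours basement membrane collagen, was at 4.08 FPKM in knockout fibroblasts and 3.85 FPKM in wild-type fibroblasts, with a log2 ratio of 0.07. Shares within a library do not depend on the scaling between libraries. Itga2 made up 3.42% of the summed FPKM of the 3 collagen-binding alphas in knockout fibroblasts and 6.76% in wild-type fibroblasts, and the ratio of Itga2 to Itga1 was 0.290 in knockout fibroblasts and 0.651 in wild-type fibroblasts. Itga11 held 84.8% of that sum in knockout fibroblasts and 82.9% in wild-type fibroblasts.

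Itga2 and Itga1 are neighbours on mouse chromosome 13, on the same strand and with unlike ratios. Pelo, which comes next in the gene order beside Itga1, was at 3.76 FPKM in knockout fibroblasts and 3.84 FPKM in wild-type fibroblasts, a log2 ratio of -0.02. The 250 bases before the annotated start of the 3 collagen-binding alpha genes are shown because this group holds the member with the largest difference. They come from the RefSeq promoter table on GRCm38.p6, a later build than that of the alignment, and 8 of the 10 members had an entry there. The windows are chr13:114932101-114932350 on the minus strand for Itga2, chr13:115101965-115102214 on the minus strand for Itga1 and chr9:62677605-62677854 on the plus strand for Itga11. Each is written 5′ to 3′ along its gene, with capitals for the motif named after them.
Itga2 upstream window: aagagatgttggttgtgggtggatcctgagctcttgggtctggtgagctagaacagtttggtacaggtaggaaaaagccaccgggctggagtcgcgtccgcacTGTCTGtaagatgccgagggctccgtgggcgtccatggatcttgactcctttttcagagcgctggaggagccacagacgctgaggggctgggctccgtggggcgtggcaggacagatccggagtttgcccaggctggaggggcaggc
Itga1 upstream window: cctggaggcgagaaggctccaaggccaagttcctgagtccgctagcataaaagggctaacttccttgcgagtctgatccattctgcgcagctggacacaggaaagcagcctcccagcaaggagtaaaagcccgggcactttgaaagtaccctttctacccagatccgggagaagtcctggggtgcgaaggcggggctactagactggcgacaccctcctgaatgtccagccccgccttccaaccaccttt
Itga11 upstream window: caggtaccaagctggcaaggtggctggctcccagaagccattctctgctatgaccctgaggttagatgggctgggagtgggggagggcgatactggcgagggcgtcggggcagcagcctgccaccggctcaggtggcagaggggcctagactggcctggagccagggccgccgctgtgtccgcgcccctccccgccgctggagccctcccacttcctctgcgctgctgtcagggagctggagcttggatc

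The windows were searched on both strands for the SMAD-binding palindrome GTCTAGAC, the SMAD-binding CAGA box as CAGACA, the AP-1 site as TGANTCA, the GC box GGGCGG and the TATA box TATAAA, none of which contains another. The only match was a CAGA box in the Itga2 window, on the opposite strand, with its first base 147 bases before the start. Of 32851 such windows in the table, 17.1% held a CAGA box, 0.167% the palindrome, 6.75% the AP-1 site, 32.7% the GC box and 12.4% the TATA box. The match is a description of these letters and not a shown binding site. G and C made up 60.8% of the Itga2 window, 57.6% of the Itga1 window and 68.4% of the Itga11 window, with a median of 52.4% over all windows.

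Laminin receptor chains were low in both libraries. Itga6, the α6 chain that pairs with β1 or with β4, was at 2.26 FPKM in knockout fibroblasts and 3.13 FPKM in wild-type fibroblasts. The knockout value was 72.3% of the wild-type value, and the log2 ratio of -0.34 was the second lowest of the members, with 631 of the measured genes lower. On a common FPKM sum the ratio was -0.000728, beside a median of 0.34 for all measured genes. Itga3, the α3 chain prominent in epithelia, was below 1 FPKM in both libraries, with a log2 ratio of 0.08. Together the laminin-binding alphas held 2.81% of the summed FPKM of the 7 alpha members in knockout fibroblasts and 3.47% in wild-type fibroblasts.

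The RGD-binding group held the first and the third alpha chain by level, Itga5 and Itgav, and both were near equal between the libraries. Itga5 had a log2 ratio of 0.01, and Itgav, the αv chain that pairs with several betas, one of -0.03, at 22.8 FPKM in knockout fibroblasts and 23.3 FPKM in wild-type fibroblasts. Of the beta partners of αv, the members Itgb3 and Itgb5 were somewhat lower in knockout fibroblasts on the deposited scale. Itgb3, the β3 chain of the vitronectin receptor, was at 6.72 FPKM in knockout fibroblasts and 8.07 FPKM in wild-type fibroblasts, a log2 ratio of -0.23, which was 0.18 on a common FPKM sum. Itgb5, the β5 chain of a second vitronectin receptor, was at 14.2 FPKM in knockout fibroblasts and 15.9 FPKM in wild-type fibroblasts, a log2 ratio of -0.16, which was 0.28 on a common FPKM sum. The median of all measured genes was 0.34 on that sum, above both values. On the deposited scale, 1514 of the measured genes lay below Itgb3 and 2747 below Itgb5.

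Itgb1, the beta partner common to the ligand groups, had a log2 ratio of -0.09, and its knockout value was 94.1% of the wild-type value. It ranked 119th by FPKM among all names in knockout fibroblasts and 114th in wild-type fibroblasts. Its FPKM were 1.43 times the sum of the 7 alpha members in knockout fibroblasts and 1.46 times in wild-type fibroblasts. Itgb1 made up 87.3% of the summed FPKM of the 3 beta members in knockout fibroblasts and 86.4% in wild-type fibroblasts.

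The composition of the integrin RNA differed little between the libraries outside its minor chains. Itga5 held 40.1% of the summed alpha FPKM in knockout fibroblasts and 38.4% in wild-type fibroblasts. Itga11 held 29.1% in knockout fibroblasts and 29.6% in wild-type fibroblasts, and Itgav 22.7% in knockout fibroblasts and 22.4% in wild-type fibroblasts. RGD-binding alphas together came to 62.8% in knockout fibroblasts and 60.9% in wild-type fibroblasts, and collagen-binding alphas to 34.4% in knockout fibroblasts and 35.7% in wild-type fibroblasts. Among β3, β5, β6 and β8, the partners of αv other than β1, Itgb5 held 62.9% in knockout fibroblasts and 62.3% in wild-type fibroblasts, and Itgb3 held 29.8% in knockout fibroblasts and 31.5% in wild-type fibroblasts. These shares count RNA and not receptor pairs at the surface.

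**Figure D3:**
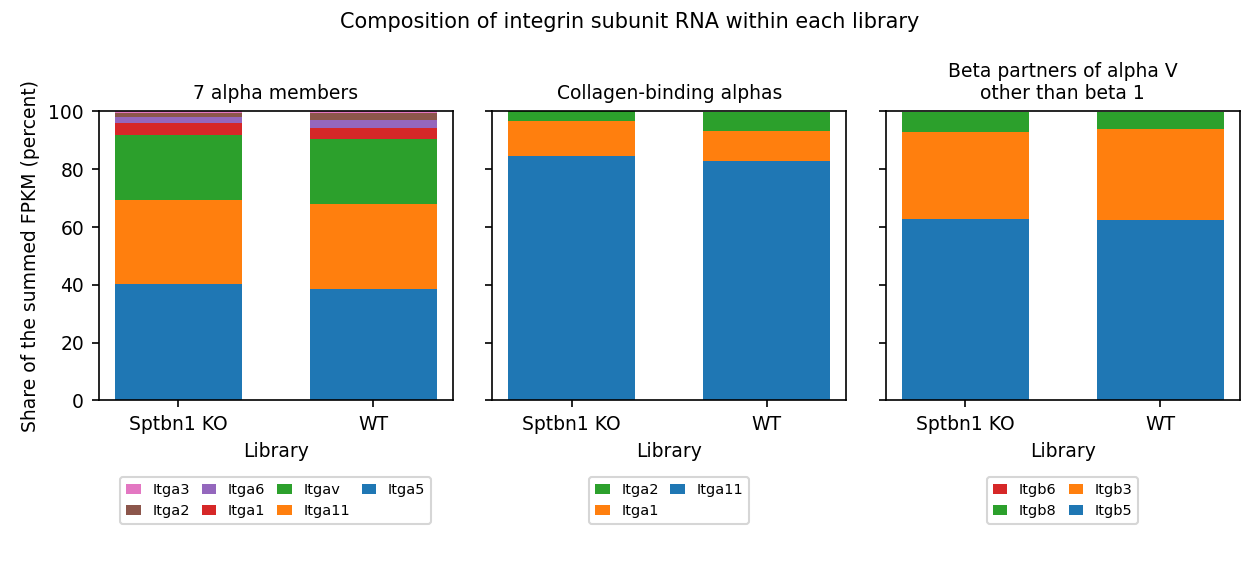
Share of the summed FPKM (percent) within the Sptbn1 knockout library (left bar) and the wild-type library (right bar), for the 7 alpha members, the 3 collagen-binding alphas and the betas that pair with αv other than β1. Itga2 takes 3.42% of the collagen-binding alphas in knockout fibroblasts and 6.76% in wild-type fibroblasts, while the large blocks are alike.

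Integrin genes outside the 10 members were mostly low, and the log2 ratios of those measured ran from -0.49 to 0.09. Of the 18 other integrin genes looked up, 8 were measured, 5 of them below 0 and 3 above 0, where 63.1% of all measured genes were below 0. Their median was -0.15, against -0.05 for all measured genes. None was 1.5-fold apart, where 1.23% of all measured genes were lower and 1.04% higher by that much. Itgbl1, a secreted relative of the beta chains and not a receptor subunit, was the lowest of the 8, with 226 of the measured genes lower. It was at 18.8 FPKM in knockout fibroblasts and 26.8 FPKM in wild-type fibroblasts, a log2 ratio of -0.49. Without Itgbl1 the median of the list was -0.12. Itga8, a further RGD-binding chain that pairs with β1, was at 5.14 FPKM in knockout fibroblasts and 6.54 FPKM in wild-type fibroblasts, a log2 ratio of -0.30. Itga9 had a log2 ratio of 0.09, Itga4 one of -0.12 and Itgb8, the β8 chain that with αv engages latent TGF-β, one of 0.02. Itga10, the fourth collagen-binding alpha, was below the limit at 0.217 FPKM in knockout fibroblasts and 0.366 FPKM in wild-type fibroblasts. Itgb4, the usual α6 partner of epithelia, was at 0.188 FPKM in knockout fibroblasts and 0.121 FPKM in wild-type fibroblasts, and Itgb6 was at 0.0119 FPKM in knockout fibroblasts and listed at 0 in wild-type fibroblasts.

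The leukocyte integrins were also present. Itgam, the αM chain of macrophages and neutrophils, was at 10.6 FPKM in knockout fibroblasts and 12.2 FPKM in wild-type fibroblasts (-0.18), and Itgb2, its β2 partner, at 5.74 FPKM in knockout fibroblasts and 6.76 FPKM in wild-type fibroblasts (-0.21). Itgal, the αL chain, was at 1.92 FPKM in knockout fibroblasts and 1.90 FPKM in wild-type fibroblasts. Of the 16 macrophage and leukocyte markers, all measured, 14 were below 0, as were 63.1% of all measured genes. Their median was -0.41, against -0.05 for all measured genes. Among them 2 were lower by at least 1.5-fold, as were 1.23% of all measured genes, and 0 were higher by that much. Their levels were 2.54 to 572 FPKM in knockout fibroblasts and 2.52 to 979 FPKM in wild-type fibroblasts. The sums were 837 FPKM in knockout fibroblasts and 1334 FPKM in wild-type fibroblasts. Most of each sum came from Lyz2, whose row is joined with a second gene, at 572 FPKM in knockout fibroblasts and 979 FPKM in wild-type fibroblasts. Of the 6 platelet markers, 2 were measured, 2 lay below 1 FPKM, and Gp9 and Gp6 were listed at 0 in both libraries. Gp1bb, whose row is joined with a second gene in the table, was at 7.31 FPKM in knockout fibroblasts and 7.38 FPKM in wild-type fibroblasts. Pf4, which macrophages also express, was at 8.14 FPKM in knockout fibroblasts and 13.2 FPKM in wild-type fibroblasts. The part of such cells in the ratios of Itga2, Itga6 and Itgb3 was not tested.

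Among the ligands, the collagens and laminins of the fibroblast matrix had list medians near 0 on the deposited scale, and the RGD-bearing and related proteins one below 0. On a common FPKM sum all of these medians were above 0, at 0.43 for collagens, 0.46 for laminins and 0.24 for RGD and related ligands. The median of all measured genes was then 0.34. Of 19 collagen genes 14 were measured, 7 below 0 and 7 above 0, where 63.1% of all measured genes were below 0. Their median was 0.01, against -0.05 for all measured genes. Col1a1, the main fibrillar collagen chain, was at 939 FPKM in knockout fibroblasts and 957 FPKM in wild-type fibroblasts. Col2a1, the cartilage collagen gene, was the 1 collagen gene past 1.5-fold, where 1.04% of all measured genes were higher and 1.23% lower by that much. It was at 2.76 FPKM in knockout fibroblasts and 0.265 FPKM in wild-type fibroblasts (1.57), followed by Col5a2 (-0.22), Col6a2 (0.16) and Col6a1 (0.12). Of 11 laminin chains 6 were measured, 2 below 0 and 4 above 0, against the same 63.1% of all measured genes below 0, with a median of 0.01. Lamc1, the γ1 chain shared by most laminins, was at 36.5 FPKM in knockout fibroblasts and 36.2 FPKM in wild-type fibroblasts, while Lama5, the α5 chain, was at 1.01 FPKM in knockout fibroblasts and 1.62 FPKM in wild-type fibroblasts (-0.38). Lama2 had a log2 ratio of -0.19, Lamb2 0.12 and Lamb1, listed as Lamb1-1, 0.04.

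Of 18 genes for ligands of the RGD-binding integrins and related matricellular proteins, 16 were measured and 13 of these were below 0, as were 63.1% of all measured genes. Their median was -0.18 on the deposited scale, against -0.05 for all measured genes, and 0.24 on a common FPKM sum, against 0.34 for all measured genes. Spp1, the osteopontin gene, was the 1 member of this list past 1.5-fold, where 1.23% of all measured genes were lower and 1.04% higher by that much. It was at 129 FPKM in knockout fibroblasts and 368 FPKM in wild-type fibroblasts (-1.51). Thbs2, a thrombospondin, was at 162 FPKM in knockout fibroblasts and 231 FPKM in wild-type fibroblasts (-0.51). Mfge8, a bridge between dying cells and αv integrins, had a log2 ratio of -0.40 and the related Edil3 one of -0.27. Fn1, the fibronectin gene and main ligand of α5β1, was at 411 FPKM in knockout fibroblasts and 404 FPKM in wild-type fibroblasts (0.03). Vtn, the vitronectin gene, was below the limit at 0.730 FPKM in knockout fibroblasts and 0.561 FPKM in wild-type fibroblasts, and the culture medium held fetal bovine serum, which contains that protein.

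Inside the cell, the genes that couple beta tails to actin were close to the median gene. Of 36 adaptor genes 35 were measured, 24 below 0 and 11 above 0, where 63.1% of all measured genes were below 0. Their median was -0.06, against -0.05 for all measured genes. With 1 FPKM added none was past 1.5-fold, where 1.23% of all measured genes were lower and 1.04% higher by that much. Parvb fell just short of that bound, though its knockout value was 56.0% of the wild-type value. Tln1, the talin that activates integrins, was at 23.7 FPKM in knockout fibroblasts and 23.7 FPKM in wild-type fibroblasts. Fermt2, the kindlin of fibroblasts, was at 49.1 FPKM in knockout fibroblasts and 48.5 FPKM in wild-type fibroblasts. Vcl, the vinculin gene, had a log2 ratio of 0.06 and Ilk, the integrin-linked kinase gene, one of -0.05. Among the larger differences were those of Parvb, a parvin that binds the ILK protein, at 1.67 FPKM in knockout fibroblasts and 2.99 FPKM in wild-type fibroblasts (-0.58), Lims2 (-0.32) and Apbb1ip, the talin recruiter most used by leukocytes (-0.31). Of 25 genes for tetraspanins, surface partners and trafficking, 22 were measured, 14 below 0 and 8 above 0, against the same 63.1% of all measured genes below 0. Their median was -0.09, against -0.05 for all measured genes. Cd63, a late endosomal tetraspanin, was at 83.1 FPKM in knockout fibroblasts and 61.8 FPKM in wild-type fibroblasts (0.42), with Rab5a, the early endosome GTPase, at -0.29, Cd9, a tetraspanin, at -0.27 and Snx17, which recycles β1 integrins, at -0.24.

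**Figure D4:**
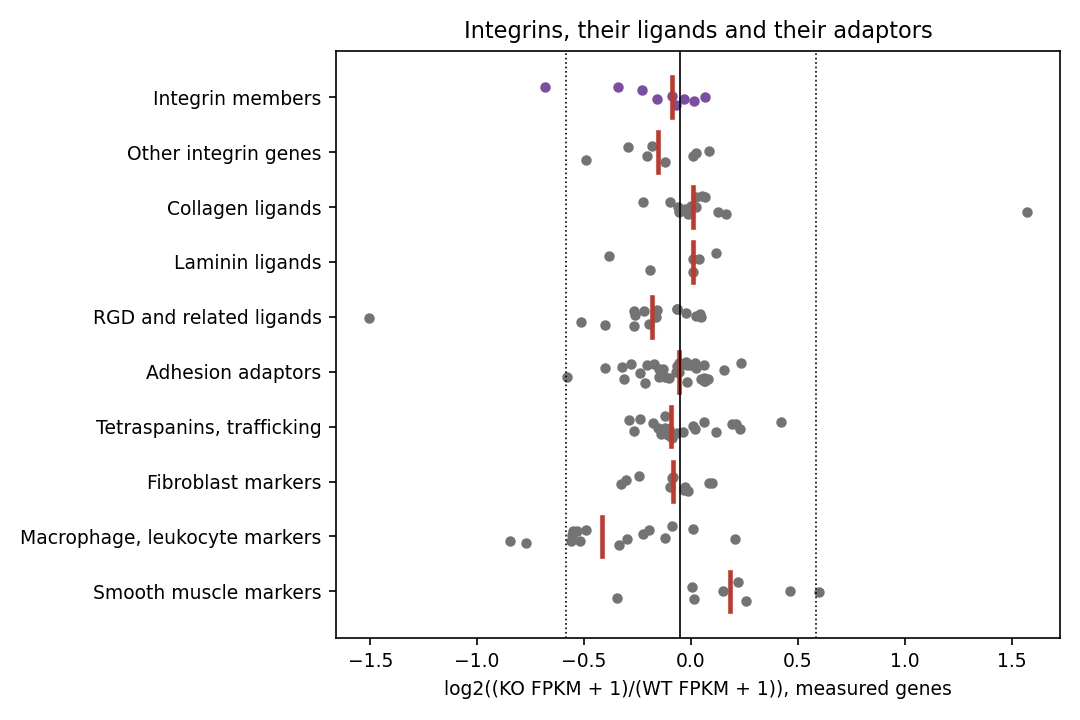
Log2 ratio of knockout over wild type for the measured members of each list (points, spread vertically for legibility), with the list median as a red bar. The solid line is the median of all measured genes at -0.05 and dotted lines mark 1.5-fold. On the deposited scale medians run from -0.41 for macrophage and leukocyte markers to 0.18 for smooth muscle markers, and the integrin members lie at -0.09. On a common FPKM sum the members lie at 0.38 and all measured genes at 0.34.

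The authors' deposited table also holds a p-value per gene, made from 1 library per genotype and so without a spread between cultures. It was under 0.05 for 5 of the 9 measured members in the authors' deposited table, against 5.6% of all measured genes. The lowest in the authors' deposited table was 3.42894e-05 for Itga2. The other 4 in the authors' deposited table were 0.037464 for Itga5, 0.032679 for Itgav, 0.031677 for Itgb3 and 0.034731 for Itgb1. In the authors' deposited table the fold of these 4 was small, with log2 values of 0.01 for Itga5, -0.03 for Itgav, -0.26 for Itgb3 and -0.09 for Itgb1. Itga11 and Itgb5 had larger p-values in the authors' deposited table, 0.652976 for Itga11 with a log2 value of -0.07 and 0.342203 for Itgb5 with a log2 value of -0.17.

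Read through a normal distribution, each p-value and fold in the authors' deposited table imply a standard error, which was set against the median of measured genes within 2-fold of the same mean FPKM. For Itga5 the implied standard error was 0.0322 times that of genes at its level, for Itgav 0.0789 times, for Itgb1 0.238 times and for Itgb3 0.493 times. The other 5 measured members lay between 0.670 and 0.837 times, Itga2 among them at 0.695 times. Values under 0.5 times were found for 4 of the 9 members, against 2.01% of all 11033 genes for which this could be computed. Itgb3 lies just inside that bound. Itgb8, outside the members, was at 0.0467 times, and the authors' deposited table gives it a p of 0.036467. The trait was not confined to integrin genes. Values under 0.5 times were also found for 2 of 14 collagen genes, Col1a1 at 0.0698 times and Col1a2 at 0.0392 times, and for 4 of 16 RGD and related ligands, Ctgf at 0.0689 times, Fbn1 at 0.1005 times, Tgfb3 at 0.106 times and Tgfb1 at 0.157 times. The authors' deposited table gives 8 of those 16 ligands a p under 0.05. Spp1 is among these 8, though its implied standard error was 4.31 times that of genes at its level. Among surface partners and trafficking genes 2 of 22 were under 0.5 times, Cav1 at 0.287 times and Dab2 at 0.446 times. None of 6 laminin chains and none of the 35 measured adaptor genes was under 0.5 times. The authors' deposited table gives none of these adaptor genes a p under 0.05. Of the 6 laminin chains, the authors' deposited table gives 1 such a p, Lama5 at 0.00525629.

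**Figure D5:**
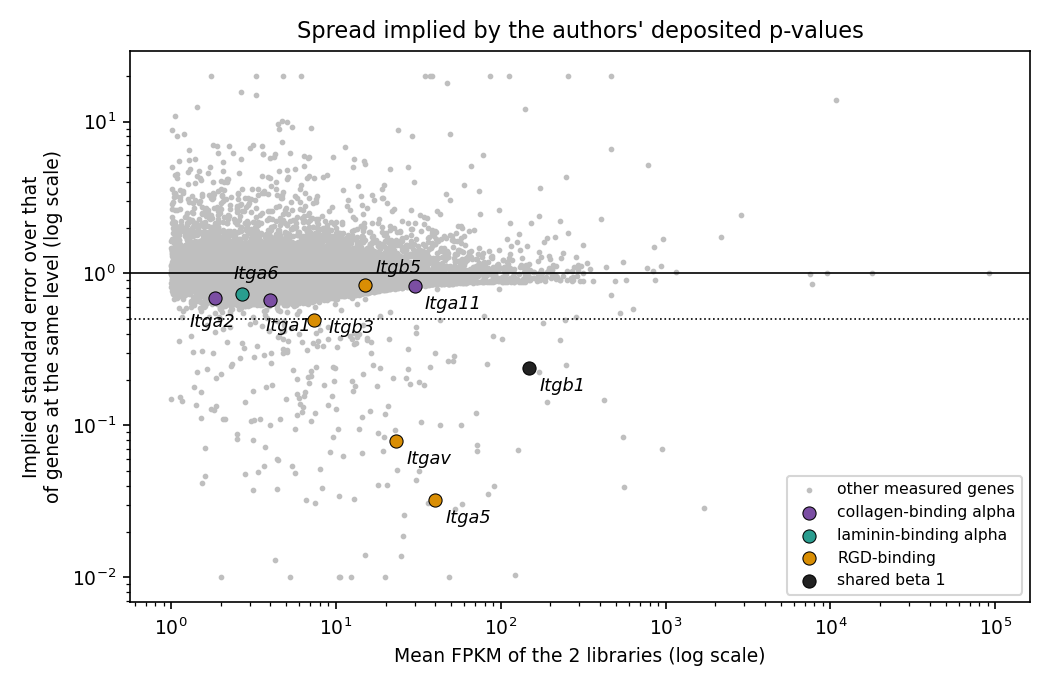
Standard error implied by the p-value and fold in the authors' deposited table, divided by that of genes at the same level (log axis), against mean FPKM (log axis), for measured genes (grey) and integrin members (coloured by ligand group). The solid line marks 1 and the dotted line 0.5, and values beyond 0.01 and 20 are drawn at the edge. Itga5, Itgav and Itgb1 lie well below the band of other genes, at 0.0322, 0.0789 and 0.238.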

How the data were processed

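RNA of 1 Sptbn1 knockout and 1 wild-type fibroblast culture was sequenced on an Illumina instrument from libraries made with a TruSeq kit, per the labels' protocols. Per the series' design text and the submitters' processing notes, reads were checked with FastQC and Trimmomatic, aligned with TopHat2 version 2.0.10 to NCBI mouse build 37.2, quantified with Cufflinks and compared with Cuffdiff2. No source used here gives further versions or settings. The authors deposited FPKM per gene for each library, with a log2 ratio and a p-value per gene whose adjustment is not stated in the file headers. Cufflinks divides fragments shared between similar genes, and strand was not used as far as the labels say. In GENCODE vM21, exons overlap for Itgav with the antisense Gm13684 (5.90% of its exonic bases) and for Itga1 with Gm49395 (3.68%), so reads there cannot be told apart.

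Where a name occurs more than once, the row of highest mean was kept. List genes were matched by symbol (182 genes), older RefSeq name (4) or joined name (2). A pseudocount of 1 FPKM and a minimum mean of 1 FPKM were used, with Python 3.11.15, pandas 2.3.3 and scipy 1.17.1, after a check on simulated data. With 1 library a group no test was run. Named genes were all members, Sptbn1, measured integrin genes, up to 4 genes per list with the largest ratios and 9 main ligands and adaptors fixed by name, and 1 gene that this rule names is not reported here. Other genes named (Col1a2, Ctgf, Fbn1, Tgfb1, Tgfb3, Cav1, Dab2, Krt18, Epcam, Flt1, Cdh5, Gp1bb, Itga10, Itgb4, Itgb6, Lyz2, Pelo, Pf4, Gp9 and Gp6) were chosen after their values were seen. The members and lists were chosen with earlier results of these data known.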

Additional observations from a re-analysis of the deposited data

How the results depend on the processing

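The 9 alternatives were a pseudocount of 0.1 FPKM or none, 4 scalings, a minimum mean of 5 FPKM or none, and summed rows for repeated names. A value was taken as moved when it differed by more than 0.1 on the log2 scale, or by more than 1.5 times for a count. On a common FPKM sum medians moved upward, with all measured genes at 0.34: the members 0.38, the collagen group 0.38, the laminin group -0.000728, the RGD group 0.35, other integrin genes 0.22, collagen ligands 0.43, laminin ligands 0.46, RGD and related ligands 0.24, adaptors 0.37 and surface partners and trafficking 0.34. There 2 members were below 0 and 0 were lower by 1.5-fold, and Itga2, at -0.39, stayed the lowest. A minimum of 5 FPKM also left 0 members lower by 1.5-fold, since Itga2 and 2 other members then fell below the limit. The laminin group, whose measured value is that of Itga6, was at -0.45 with a pseudocount of 0.1 FPKM, -0.47 with none and -0.13 with no minimum, where Itga3 enters. None of these results was called past 1.5-fold in one direction and turned to the other, and 100 further summary values stayed within the limits above. Relative to the median gene, Itga2 lay between -1.02 and -0.63 in all settings. No paired analysis was possible because each genotype has 1 library and no test was run, so no library could be left out either. Unknown depth limits Itga3 and the other genes below 1 FPKM most.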

Other observations

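Those p-values of the authors' deposited table that imply an unusually small standard error also differed in how they were written. Among measured genes under 0.5 times the standard error of genes at their level, 204 of 222 had a p-value written with 5 or fewer significant digits in the authors' deposited table, or 91.9%. Among genes between 0.5 and 2 times, 1060 of 10367 did, or 10.2%, counting p-values of 0.0001 or more. The p-values of Itga5, Itgav, Itgb3 and Itgb1 in the authors' deposited table have 5 digits, and those of the other 5 measured members have 6. The authors' deposited table puts 217 of the 222 genes under 0.05. Separately, the log2 column of the authors' deposited table differed by more than 0.01 from the log2 ratio of its own FPKM columns in 29 of 16471 rows above 0 in both libraries, none of them an integrin gene. What produced these rows was not tested.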
